A study of Mus musculus with 6 samples.

Results

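CD4SP iT cells were the CD4 single-positive T cells that grew in the spleens of B-NDG mice from transplanted blood progenitors made from embryonic stem cells. They were described here through the genes listed at 1 TPM or more in each of the 3 CD4SP libraries. TPM is a read density, the reads of a gene over its length, expressed against the sum of all genes of that library, so that levels can be compared between genes. The rule held for 9753 of the 23420 genes in the table, and for 9528 genes in the 3 libraries of CD8SP iT cells from the same kind of recipient. The stem cells (iR9-ESC, C57BL/6 background, CD45.2) carried an rtTA and doxycycline-inducible Runx1-p2a-Hoxa9 cassette in the Rosa26 locus and were selected with hygromycin. Both populations share this cassette, which was induced with doxycycline in culture. The study describes transplantation of these progenitors without doxycycline, but B-NDG recipients in its gut and lung analysis were fed doxycycline, and it does not state the feeding of the mice sorted here. The irradiated B-NDG recipients lack T, B and NK cells of their own, so the model has no competing host lymphocytes. The CD4SP cells were sorted as CD45.2+ CD4+ cells, with Ter119 and CD11b among the markers of excluded cells, and each library came from an aliquot of 1000 cells. The labels give strain, tissue and subset, and no age, sex or mouse of origin. The study calls its columns biological replicates and also sample repeats, without tying libraries to mice, so the p-values below measure the spread between these libraries, which need not be the spread between mice.

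CD4 T cells recognise peptides on MHC class II through the T cell receptor, with CD4 as the coreceptor. Their identity is set in the thymus by ThPOK, the product of Zbtb7b, which holds off the CD8 programme. In the periphery they divide into helper types, each known by a transcription factor and a set of cytokines, and into regulatory T cells, known by Foxp3, high CD25 and CTLA-4. In a bulk library of mixed cells, fewer cells of a type and less RNA per cell of that type cannot be told apart.

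The defining markers of the population were present in every library. Cd4 (chromosome 6, 124864692 to 124888221 on GRCm38, protein coding) was at 331, 281 and 279 TPM in replicates 1, 2 and 3. Zbtb7b (chromosome 3, 89377644 to 89394776) was at 38.6, 34.4 and 36.6 TPM. Cd40lg, the helper ligand that licenses B cells and dendritic cells (X chromosome, 57212143 to 57224042), was at 40.1, 53.4 and 43.1 TPM, and Il2ra, which encodes CD25 (chromosome 2, 11642807 to 11693193), was at 95.7, 92.0 and 82.1 TPM. All 4 genes were members, their 3 values lay close together, and none overlapped with the CD8SP libraries. Cd4 was a sort marker, so its separation was set by the sort. Cd4 and Cd40lg stayed under 1 TPM in all CD8SP libraries, so their separation is given with no test. Cd3d and Cd3g, chains of the CD3 complex, averaged 1038 and 1051 TPM, and Lck, the kinase bound to CD4, averaged 1690 TPM. Cd3e, the remaining CD3 chain of the complex, was far lower at 42.2, 51.7 and 51.4 TPM. The CD8SP libraries shared this gap, with means of 47.1 TPM for Cd3e, 1132 TPM for Cd3d and 769 TPM for Cd3g. Cd8a was at 2.93, 0.319 and 2.20 TPM and was no member, whereas Cd8b1 was at 36.0, 24.6 and 24.3 TPM and was one.

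Markers of other blood cells were mostly at or near 0 in the CD4SP libraries. Of the neutrophil list, 8 of 9 genes were listed at 0 in all 3 libraries, S100a8 and S100a9 among them. Of 11 B cell genes 6 were members, while 3 (Ms4a1, Pax5 and Cr2) were at 0. Cd79b averaged 13.8 TPM and Igll1, a surrogate light chain gene, 32.7 TPM. The B cell list summed to 61.4, 59.4 and 90.3 TPM in CD4SP and 58.7 to 70.8 TPM in CD8SP libraries. Ncr1 and the Klra receptors, which mark NK cells, were at 0 for 7 of 11 genes, and Sox13 and Zbtb16, factors of unconventional T cells, were at 0. The list for macrophages and monocytes summed to 583 to 757 TPM in CD4SP and 312 to 326 TPM in CD8SP libraries. Most of that sum was Ctss (cathepsin S, mean 528 TPM) and Ccr2 (mean 117 TPM). Hmox1 and Spic of that list were at 0, and Lyz2 was at 30.9, 17.1 and 18.3 TPM. The dendritic list, which holds MHC class II genes, summed to 114 to 161 TPM in CD4SP and 53.7 to 66.4 TPM in CD8SP libraries, with Flt3, Clec9a and Cd209a at 0 and H2-Ab1 at 48.1, 45.0 and 30.3 TPM. Against CD8SP cells the limma model described below called 4 of 9 tested macrophage genes higher (Ctss, Ccr2, Lyz2 and C1qb) and 1 lower, and 4 of 7 dendritic genes higher, H2-Aa, H2-Ab1 and H2-Eb1 among them, and 1 lower (Itgax, tested only through its CD8SP values), where 7.92% of all tested genes were called higher and 1.80% lower. C1qb, a complement gene of macrophages, was at 4.26, 9.56 and 6.98 TPM and entered the model through its CD4SP values. Among genes at 1 TPM or more in all 3 CD8SP libraries 3 of 6 macrophage and 4 of 6 dendritic genes were called higher. The part of these cells in the results below was not tested.

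A small number of genes supplied most of the RNA. Replicates 1, 2 and 3 had 10594, 10329 and 10649 genes of at least 1 TPM. The 10 most abundant genes of a library held 9.38% ± 0.404 of its TPM (SD, n = 3), the top 100 held 40.3% ± 2.95 and the top 1000 held 73.1% ± 2.33. The RNA was most concentrated in replicate 2, where the top 100 genes held 43.7%. Among the members, 143 genes (1.47%) averaged 1000 TPM or more and held 45.8% of the TPM, 1301 averaged 100 to 1000, 5553 averaged 10 to 100, and 2756 averaged under 10 and held 1.48%. Abundant genes had short transcripts. The median longest transcript was 977 nt for members at 1000 TPM or more, 1799 nt at 100 to 1000, 2976 nt at 10 to 100 and 3692 nt below 10. By RefSeq, 9369 members (96.1%) were protein coding, against 87.1% of the whole table, and 193 were long non-coding RNAs.

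**Figure D1:**
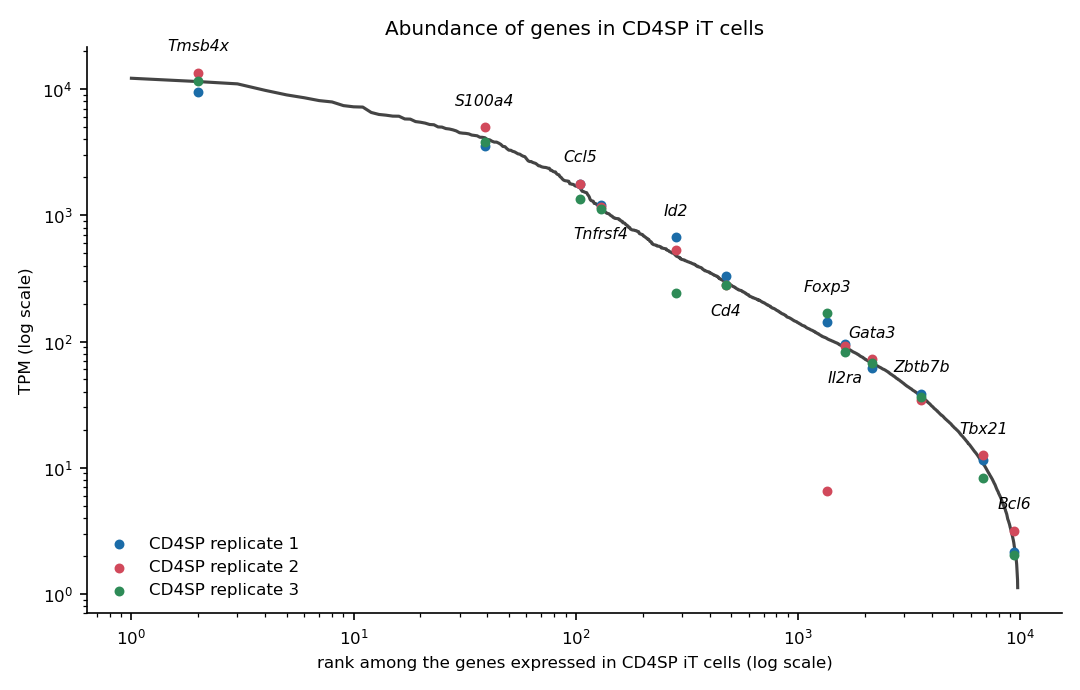
TPM against rank for the 9753 genes of the CD4SP iT cells, both axes on a log scale. The line is the mean of the 3 libraries and the points are the libraries for named genes. Foxp3 in replicate 2 (6.56 TPM) sits far below the line.

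Sh3rf1, Slfn3 and Lig4 lay just inside the limit of 1 TPM, with lowest values of 1.001, 1.004 and 1.004 TPM. Sestd1, Ggnbp1 and Cnnm4 lay just outside, with lowest values of 0.9999, 0.9989 and 0.9983 TPM. Another 751 genes reached 1 TPM in only 2 CD4SP libraries, and the library that fell short was replicate 2 for 425 of them, replicate 1 for 176 and replicate 3 for 150.

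Cytoplasmic ribosomal protein genes were the largest family. The 87 genes made up 25.5%, 30.6% and 25.9% of TPM in replicates 1, 2 and 3, or 27.3% ± 2.85 (SD, n = 3). In CD8SP libraries the share was 35.4% ± 2.34 (SD, n = 3). All CD4SP shares lay below all CD8SP shares (two-sided exact permutation test, p = 0.1, which is the lowest p possible with 3 libraries on each side). Rplp1, a stalk protein of the large subunit, had the highest mean of all genes, at 11111, 14186 and 11370 TPM. Replicate 2 had the largest ribosomal share of the CD4SP libraries.

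Outside the ribosome, the most abundant transcripts encoded the actin cytoskeleton, MHC class I, translation factors and small membrane or calcium-binding proteins. The 20 most abundant non-ribosomal members held 10.6%, 10.8% and 10.4% of the TPM, and 16 of them were among the 20 highest non-ribosomal genes of every library. Tmsb4x, thymosin beta 4, which binds monomeric actin (X chromosome, 167207093 to 167209315), led at 9429, 13515 and 11567 TPM. It held rank 5, 2 and 1 among all genes of the 3 libraries. B2m, the light chain of MHC class I, followed at 10438, 11578 and 11081 TPM. The study checked its amplified cDNA by qPCR of B2m and Gapdh before sequencing, so the presence of B2m was a condition for these libraries.

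Translation was represented by Eef1a1, which delivers tRNA to the ribosome, at 11516, 7456 and 10426 TPM. Tpt1, the translationally controlled tumour protein, was at 8582, 7963 and 7839 TPM, and Gnb2l1 (Rack1), a scaffold on the small ribosomal subunit, at 7386, 5225 and 6074 TPM. Eef1a1 and Gnb2l1 were lowest in replicate 2. Eef1a1 and Tpt1 have processed copies in the genome that are over 95% identical, so the split of their reads is uncertain.

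Actb and Actg1, the cytoplasmic actins, averaged 5028 ± 121 and 3073 ± 838 TPM (SD, n = 3). Coro1a, the actin-binding coronin of blood cells, averaged 2473 ± 203 TPM, and Myl6, a myosin light chain, 2432 ± 496 TPM. Actb varied least of these and Actg1 most, with 2172 TPM in replicate 2 against 3829 and 3219 TPM in the others. Actg1 and Myl6 also have near-identical copies, so the split of their reads is uncertain.

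Genes typical of antigen-experienced T cells stood in the same range. S100a4 and S100a10, EF-hand proteins tied to cell motility and membrane trafficking, averaged 4125 ± 761 and 3289 ± 353 TPM (SD, n = 3), and Crip1, a LIM protein, 3520 ± 646 TPM. Ly6a, which encodes Sca-1, was at 3045, 3459 and 3156 TPM, Cd52 at 4614, 7333 and 5436 TPM, and Srgn, the proteoglycan core of secretory granules, at 2267, 2407 and 2727 TPM. Among the rest, Shisa5 was at 3209, 3162 and 3199 TPM, the steadiest of the 20 genes. The long non-coding RNA AW112010 averaged 3056 TPM and the small protein Sh3bgrl3 2582 TPM. Except for Srgn and Shisa5, the values of this group were highest in replicate 2.

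**Figure D2:**
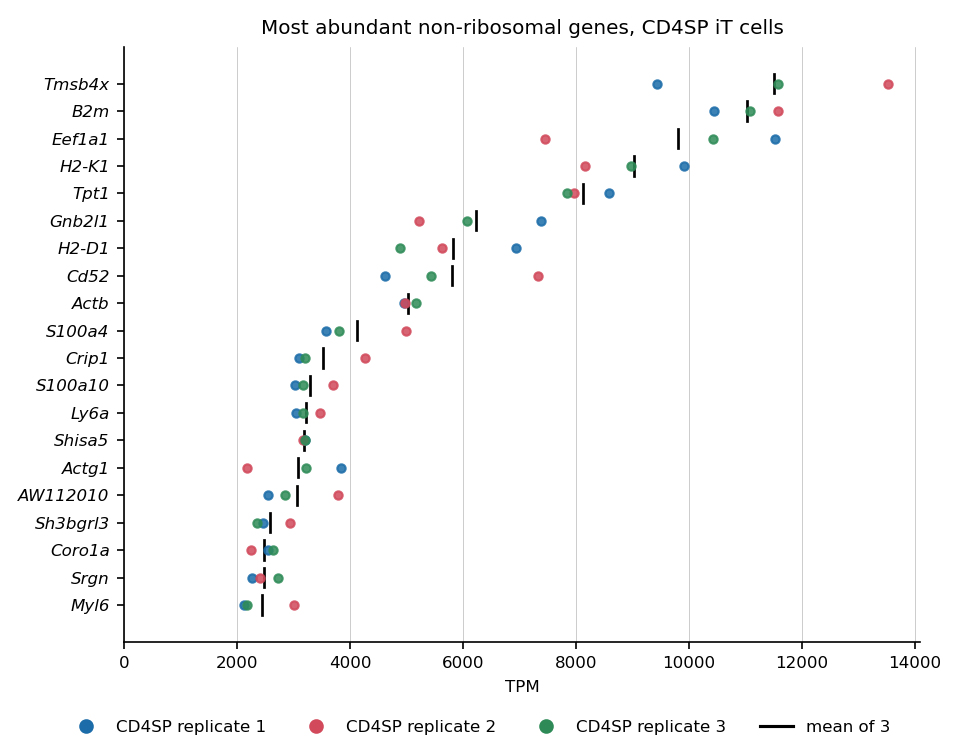
TPM of the 20 most abundant non-ribosomal genes in CD4SP iT cells. Points are libraries and the bar is their mean. Tmsb4x and Cd52 are highest in replicate 2 and Actg1 lowest there, while Shisa5 has 3 values between 3162 and 3209 TPM.

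MHC class I supplied 3 of the 7 most abundant non-ribosomal genes. Class I presents peptides of the cell's own proteins and is made by nearly all nucleated cells. H2-K1 was at 9906, 8166 and 8981 TPM and H2-D1 at 6930, 5634 and 4878 TPM, both on chromosome 17. The family of 25 genes had 18 members and held 2.86% ± 0.167 of the TPM (SD, n = 3). Genes that supply class I with peptides spanned a wide range. Psmb8, an immunoproteasome subunit, was at 2463, 2061 and 2164 TPM. The transporter genes Tap1 and Tap2 were at unequal levels, Tap1 at 421, 362 and 370 TPM and Tap2 at 63.7, 49.6 and 33.7 TPM. The chaperone gene Pdia3 averaged 62.2 TPM. These 4 genes were chosen after their values were seen. Because class I promoters are known for a kappa-B element that NF-kappa-B factors bind, the 300-base windows around the annotated starts of the abundant genes were read (250 bases before and 50 after, RefSeq, GRCm38.p6). Windows with a kappa-B match are shown from 24 bases before to 24 after it, on the strand of the gene, with that match in capitals. The H2-K1 stretch is at chr17:34000424-34000482 (minus strand), that of H2-D1 at chr17:35262899-35262957 (plus), that of B2m at chr2:122147537-122147594 (plus), and Nfkbia, which encodes the NF-kappa-B inhibitor I-kappa-B alpha, is at chr12:55492643-55492700 (minus).
H2-K1: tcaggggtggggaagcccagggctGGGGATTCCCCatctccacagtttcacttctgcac
H2-D1: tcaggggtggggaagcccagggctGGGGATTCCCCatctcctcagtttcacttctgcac
B2m: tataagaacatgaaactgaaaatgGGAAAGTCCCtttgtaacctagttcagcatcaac
Nfkbia: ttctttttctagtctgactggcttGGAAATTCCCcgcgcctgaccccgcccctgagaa

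The H2-K1 and H2-D1 stretches differed at 1 of 59 bases. Both hold the same 11-letter class I kappa-B element, which occurred on either strand in 10 of 32851 windows (0.0304%). B2m and Nfkbia hold a looser 10-letter kappa-B form on the opposite strand, found on either strand in 135 windows (0.411%). Of the 20 genes above, which do not include Nfkbia, 16 had a window and 3 of these held a kappa-B match. In all, 7 motifs were searched. The interferon-response repeat was in 4 of the 16 genes (3.44% of all windows) and CCAAT in 5 (37.4%). TGACG was in 7 (20.8%), GGAAA in 10 (61.3%) and TGANTCA in 1 (7.81%). The stretches were chosen after the search. A match describes letters and is no evidence of binding. The NF-kappa-B genes were measured as well. Rela was at 145, 97.5 and 118 TPM, Nfkb1 at 125, 81.4 and 118 TPM, Relb at 85.1, 79.0 and 82.3 TPM and Nfkbia at 463, 429 and 445 TPM. Nfkb2 averaged 46.4 TPM, and Rel, the remaining subunit gene, was no member at 6.16, 0.635 and 3.18 TPM.

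Surface genes had the highest median level of the 3 gene classes that were listed. Of 269 listed surface genes, 214 were members, 176 of these averaged 10 TPM or more and 77 averaged 100 TPM or more. The median over all 269 was 30.9 TPM, against 10.5 TPM for 297 transcription factor genes and 1.246 TPM for 160 genes of secreted proteins. Behind H2-K1, H2-D1, Cd52 and Ly6a came Ptprcap, which binds CD45, at 2449, 2625 and 2171 TPM. It shares transcript sequence with Coro1b, so reads there may belong to either gene. Ly6e averaged 2097 ± 168 TPM, Nkg7, a granule membrane protein best known from killer cells, 1877 ± 111 TPM, and Il2rg, the common gamma chain that B-NDG hosts lack, 1244 ± 141 TPM (SD, n = 3 each).

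Receptors that shape activation followed. Thy1 was at 1112, 1241 and 1169 TPM. Tnfrsf4, which encodes the costimulatory receptor OX40, was at 1201, 1157 and 1124 TPM, and Ctla4, the inhibitory receptor that takes up CD80 and CD86, at 866, 814 and 937 TPM. These levels of OX40 and CTLA-4 transcripts were close to those of Cd3d and Cd3g and about 3 to 4 times that of Cd4 itself. Ms4a6b and Ms4a4b, tetraspan proteins of lymphocytes, averaged 1176 and 855 TPM. All 3 values of each of these genes lay within 1.5 times of each other.

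Among the surface groups, the antigen receptor and coreceptor group was the most complete. Of its 37 genes, 33 were members, all of these averaged 10 TPM or more, and the group median was 217 TPM. Chemokine and lipid receptors had 36 members of 43, led by Cxcr6, a receptor for tissue positioning, at 656, 466 and 629 TPM. Integrins and adhesion molecules had 34 members of 43, among them Itgb7, the gut-homing beta chain, at 835, 673 and 790 TPM and Selplg, the selectin ligand PSGL-1, at 830, 636 and 660 TPM. Cytokine receptors had 33 members of 47 with a median of 11.6 TPM, and costimulatory or inhibitory receptors 40 of 46 with a median of 37.6 TPM. Cxcr6, Itgb7 and Selplg were lowest in replicate 2.

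Secreted proteins were a contrast, with a few very abundant granule and cytosolic lectin genes and many cytokines at or near 0. Of the 160 genes, 71 were members, 51 of these averaged 10 TPM or more and 18 averaged 100 TPM or more, and 48 were listed at 0 in all 3 CD4SP libraries. After B2m and Srgn came Lgals1, galectin-1, at 1790, 2532 and 2092 TPM and Ccl5, the chemokine RANTES, at 1773, 1783 and 1343 TPM. Ctsw, a cathepsin of cytotoxic lymphocytes, averaged 621 ± 14.2 TPM, Mif 550 ± 79.7 TPM and Cst3, cystatin C, 519 ± 26.0 TPM (SD, n = 3 each). Rnaset2a and Rnaset2b, at 528 and 524 TPM, are 99.1% identical over 2456 nt and may share reads. Lgals3 was at 513, 500 and 498 TPM, Gzmb, granzyme B, at 413, 384 and 306 TPM, and Lgals9 at 417, 301 and 362 TPM.

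Of the 41 genes listed as interleukins, interferon and related cytokines, 15 were members. Apart from Mif and Il16 (mean 135 TPM), the highest was Ifng at 68.3, 72.1 and 62.3 TPM. The next was Ebi3, a subunit of IL-27 and IL-35, at 64.6, 54.7 and 61.7 TPM, followed by Il10, the anti-inflammatory interleukin, at 54.1, 24.7 and 53.6 TPM. Il2 was at 10.97, 17.7 and 11.1 TPM, Il17a at 8.66, 4.66 and 11.3 TPM and Il4 at 8.16, 6.62 and 4.50 TPM. Il3, Il6 and Il9 were listed at 0 in every CD4SP library. Ifng exceeded Il10, Il2, Il17a and Il4 in every library. Il2 lay above Il4 in every library, while the values of Il17a overlapped with those of both. Several of these genes were named for their function after the values were seen.

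Outside the interleukins, Penk, the enkephalin precursor, was at 185, 133 and 216 TPM and Lta, lymphotoxin alpha, at 80.9, 78.0 and 82.9 TPM. Only 7 of 31 chemokine genes were members. Ccl1, a ligand of CCR8, was at 25.1, 134 and 27.6 TPM, with replicate 2 standing above the other libraries.

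**Figure D3:**
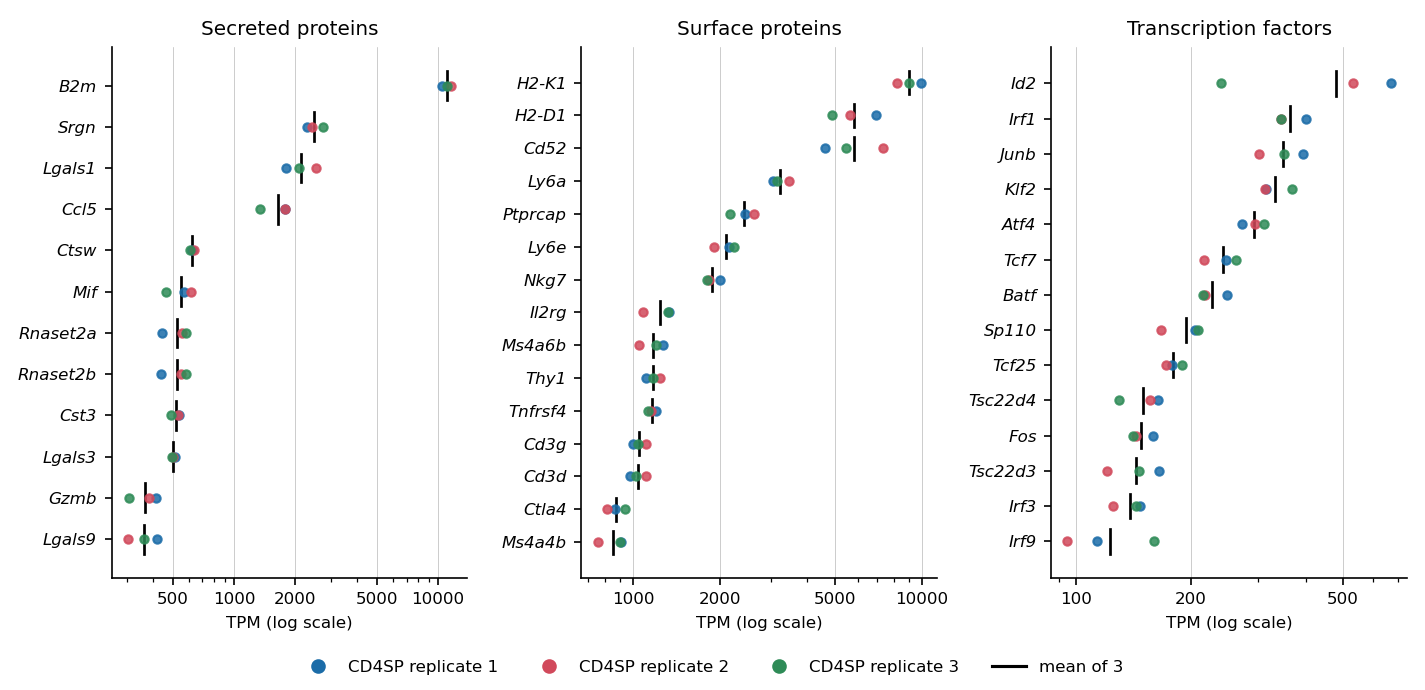
TPM (log scale) of the 12 secreted and 15 surface genes with the highest mean in CD4SP iT cells, and of 14 of the 15 such transcription factor genes. Points are libraries and bars are means. Id2 has the widest spread among the factors, from 240 to 668 TPM.

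Transcription factor genes lay between the surface genes and the secreted genes in median level. Of 297 genes, 226 were members and 21 averaged 100 TPM or more among them. Id2, an inhibitor of E proteins that favours effector cells, had the highest mean and the widest spread of the 15 leading factors, at 668, 532 and 240 TPM. Irf1, an interferon-response factor, was at 401, 344 and 345 TPM, Junb at 393, 302 and 351 TPM, and Klf2, which keeps T cells recirculating, at 315, 312 and 368 TPM. Atf4, of the amino acid response, averaged 292 ± 20.1 TPM, Tcf7, which encodes TCF-1, 242 ± 23.96 TPM and Batf, the AP-1 partner of IRF4, 227 ± 19.2 TPM (SD, n = 3 each). The 3 libraries of these factors other than Id2 lay within 1.5 times of each other.

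Irf3 and Irf9, which act in interferon induction and response, averaged 138 and 123 TPM. Sp110, a nuclear body protein, averaged 194 TPM, and its near-identical copies make the split of its reads uncertain. Tcf25, Tsc22d4, Fos and Tsc22d3, the glucocorticoid-induced leucine zipper, averaged 180, 150, 148 and 144 TPM. All but 2 of the 24 STAT, IRF and SMAD genes were members, and their median was 32.3 TPM. Among lineage and helper factors 38 of 56 were members with a median of 9.33 TPM.

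The helper make-up was read from 7 gene lists, each compared with CD8SP iT cells to show where the CD4SP values lay outside those of the other T cell population. The limma model on log2(TPM + 1) tested 10476 genes, among them all 9753 members. It called 7.92% of them higher and 1.80% lower in CD4SP (adjusted p under 0.05 and over 2-fold), and their median log2 difference was 0.28. After median-of-ratios rescaling that median was 0.00 and the calls were 489 higher and 300 lower in place of 830 and 189. Of all calls, 81.5% were higher in CD4SP as deposited, 62.0% under the median-of-ratios scale, 57.1% when libraries were quantile normalized and 71.6% when ribosomal protein genes were dropped. A member is tested even if CD8SP cells lack it, so a list also gains genes through the population where they are high. Where this changes a count, the calls are therefore given also among the tested genes at 1 TPM or more in all 3 CD8SP libraries, which were 9528 genes with 561 higher and 189 lower calls. A gene whose 3 CD4SP values all lay above the CD8SP values was 36.6% of those tested, and one with all below was 6.61%.

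Type 1 helper genes were present at moderate levels. Of the 12 genes, 10 were members. Tbx21, which encodes T-bet, was at 11.5, 12.5 and 8.23 TPM. Its target Cxcr3 was at 531, 435 and 539 TPM, and Il18r1, part of the IL-18 receptor, at 87.8, 88.9 and 82.0 TPM. Against CD8SP cells 1 of 11 tested genes was called higher and 1 lower, where 7.92% and 1.80% of all genes tested were called. The list had a median log2 difference of 0.02. Tbx21 did not differ beyond the spread (log2 difference 0.02, SE 0.22, limma adjusted p 0.956), nor did Ifng (-0.27, SE 0.12, limma adjusted p 0.144). The count of higher calls in this list was 0 under both rescalings, with ribosomal protein genes removed, and without CD4SP replicate 1 or CD8SP replicate 3, and the count of lower calls was 0 without CD4SP replicate 2 or CD8SP replicate 3.

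Type 2 genes showed a strong factor with few cytokine transcripts. Gata3, the type 2 factor that all CD4 cells also need, was at 61.6, 72.7 and 67.0 TPM. Ccr8, a receptor of skin-homing and regulatory cells, was at 43.7, 35.7 and 43.4 TPM, and Ccr4 at 14.6, 15.3 and 12.6 TPM. Il5 was at 0.744, 2.27 and 2.84 TPM and Il13 at 1.56, 0 and 1.53 TPM, so neither was a member. Of 8 tested genes 6 were called higher and none lower, against 7.92% and 1.80% of all genes tested. However, 5 of the 6 called genes would not have been tested without their CD4SP values. Of the 3 genes at 1 TPM or more in all CD8SP libraries, only Gata3 was called. Gata3 was 1.86 higher on the log2 scale (SE 0.18, limma adjusted p 0.000384), with no overlap between populations. Ccr8 was at 0.841, 1.18 and 0.933 TPM in CD8SP libraries and is one of the 5 genes, so its level there is given with no test.

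Type 17 genes ranged from shared signalling factors at high levels to cytokines near 0. Of the 12 genes, 11 were members, and the list summed to 529, 433 and 481 TPM with a median of 14.4 TPM. Most of that sum lay in Batf, given above, in Stat3, which transmits IL-6 and IL-21 signals, at 108, 76.8 and 99.1 TPM, and in Il21r at 58.4, 72.7 and 61.6 TPM. Rora, a nuclear receptor of the type 17 programme, was at 19.96, 6.55 and 13.9 TPM and Ccr6, a mucosal homing receptor, at 32.3, 15.3 and 38.2 TPM. Il17f was at 12.5, 1.26 and 1.61 TPM, high in replicate 1 alone, and Il22 at 1.71, 0 and 0.773 TPM was no member. Of 11 tested genes 6 were called higher and none lower, against 7.92% and 1.80% of all genes tested. Of the 6 tested genes also present in all CD8SP libraries 3 were called higher. The number of calls ranged from 4 to 8 over the alternatives.

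Follicular helper genes had strong receptors and a weak master factor. Icos, the costimulator needed for B cell help, was at 471, 334 and 432 TPM, Sh2d1a, which encodes the adaptor SAP, at 297, 337 and 282 TPM and Pdcd1, which encodes PD-1, at 130, 103 and 111 TPM. Bcl6, the follicular factor, was at 2.14, 3.16 and 2.04 TPM, Cxcr5 at 16.5, 15.4 and 21.7 TPM, and Ascl2 was listed at 0. Of 9 tested genes 6 were called higher and none lower (median 1.01), against 7.92% and 1.80% of all genes tested. Among the listed genes present in all CD8SP libraries 5 of 8 were called higher. Quantile normalization left 1 call, the median-of-ratios scale 2 and the fit without CD8SP replicate 3 also 2, and the cause of these losses was not tested. Icos was 2.40 higher on the log2 scale (SE 0.16, limma adjusted p 5.41e-05), while Pdcd1 was within 2-fold (0.47, SE 0.13, limma adjusted p 0.039).

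The regulatory list was the most abundant of the helper lists. Of its 26 genes 24 were members, with a median of 82.5 TPM and a sum of 5969, 5598 and 5924 TPM. Beside Tnfrsf4 and Ctla4 it was led by Capg, an actin-capping protein, at 887, 899 and 906 TPM, by Tnfrsf18, which encodes GITR, at 835, 712 and 769 TPM, and by Folr4 (Izumo1r, the folate receptor FR4) at 428, 485 and 438 TPM. Itgae, which encodes CD103, averaged 192 ± 26.1 TPM, Nt5e, which encodes the ectoenzyme CD73, 124 ± 28.7 TPM and Klrg1 82.6 ± 5.02 TPM (SD, n = 3 each). Ikzf2, which encodes Helios, was at 44.9, 35.6 and 48.3 TPM, Nrp1 at 64.8, 56.1 and 71.3 TPM, Lrrc32, the surface anchor of latent TGF-beta, at 42.6, 62.5 and 56.0 TPM and Gpr83 at 25.9, 27.9 and 19.5 TPM. Tgfb1 and Itgb8 did not reach 1 TPM in all libraries.

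Of 24 tested regulatory genes 18 were called higher and none lower, with a median log2 difference of 2.25. For 20 of the 24 the CD4SP values all lay above those of CD8SP. Over all genes tested 7.92% were called higher, 1.80% were called lower and 36.6% had all CD4SP values above. The count of higher calls in the list lay between 17 and 20 over the alternatives. Among the 20 genes also present in all CD8SP libraries 14 were called higher, with a median of 1.95. Tnfrsf4 was 4.74 higher (SE 0.12, limma adjusted p 2.38e-07), Ctla4 2.64 higher (SE 0.12, limma adjusted p 6.38e-06) and Ikzf2 2.79 higher (SE 0.19, limma adjusted p 5.41e-05). Several of these genes are also induced by activation in conventional CD4 cells, Il2ra, Tnfrsf4, Tnfrsf18 and Ctla4 among them.

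Foxp3, the defining factor of regulatory cells (X chromosome, 7573644 to 7595245), went against the rest of its list in 1 library. It was at 142, 6.56 and 167 TPM. The CD8SP libraries were at 7.48, 7.48 and 10.05 TPM, so replicate 2 lay below all of them. It was 4.36 below the mean of replicates 1 and 3 on the log2 scale, whereas the other 23 members of the list had a median difference of -0.09, with only Il10 more than 2-fold lower (-1.10) and Tnfrsf9 the highest (1.12). The difference from CD8SP cells was 2.61 (SE 1.01, limma adjusted p 0.1005) and was not called. Without replicate 2 it was 4.06 and was called, and the fit with the replicate number as a block also called it. An annotated transcript of Ccdc22 shares 361 identical nt with Foxp3, and Ccdc22 was at 20.1, 11.3 and 19.9 TPM. The part of this shared sequence in the low value was not tested.

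The list for IL-10 producing Tr1 cells had 8 members of 9. Maf, which drives Il10, was at 42.3, 53.6 and 69.7 TPM, Lag3 at 52.7, 42.3 and 42.6 TPM and Prdm1, which encodes Blimp-1, at 13.5, 12.9 and 13.6 TPM. Il10, Maf, Ahr and Prdm1 were called higher and 1 gene lower, of 8 tested genes, against 7.92% and 1.80% of all genes tested. Maf was 4.02 higher (SE 0.28, limma adjusted p 7.19e-05) and Il10 3.13 higher (SE 0.55, limma adjusted p 0.00608). Itga2, which encodes the Tr1 marker CD49b, was listed at 0.

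Transcripts of cytotoxic genes were present at unequal levels. All 14 genes of that list were members. Nkg7 was at 2005, 1827 and 1800 TPM and Gzmb averaged 368 ± 55.1 TPM (SD, n = 3), but Prf1, the pore-forming perforin, was at 9.205, 2.28 and 7.08 TPM and Gzmm averaged 4.91 TPM. Gzma was at 39.8, 101 and 116 TPM and Gzmk at 105, 81.6 and 93.1 TPM. Of the 14 genes 10 were called lower than in CD8SP cells and none higher, with a median of -2.10. For 11 of them the CD4SP values all lay below. Over all genes tested 1.80% were called lower, 7.92% were called higher and 6.61% had all CD4SP values below. The NK cell list summed to 13.7 to 23.9 TPM in CD4SP and 108 to 127 TPM in CD8SP libraries. All 5 of its tested genes were called lower, but Klra7, Klra9 and Klrb1c were tested only through their CD8SP values, which leaves Klre1 and Eomes, the latter shared with the cytotoxic list. Its part in the cytotoxic difference was not tested. Gzma fell by 4.33 on the log2 scale (SE 0.35, limma adjusted p 0.00014) and Prf1 fell by 3.16 (SE 0.38, limma adjusted p 0.00106), whereas Gzmb did not pass the test (-0.38, SE 0.15, limma adjusted p 0.107) and Runx3, Fasl and Klrk1 were not called either. Eomes, the factor shared by killer cells, averaged 9.34 ± 1.22 TPM.

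**Figure D4:**
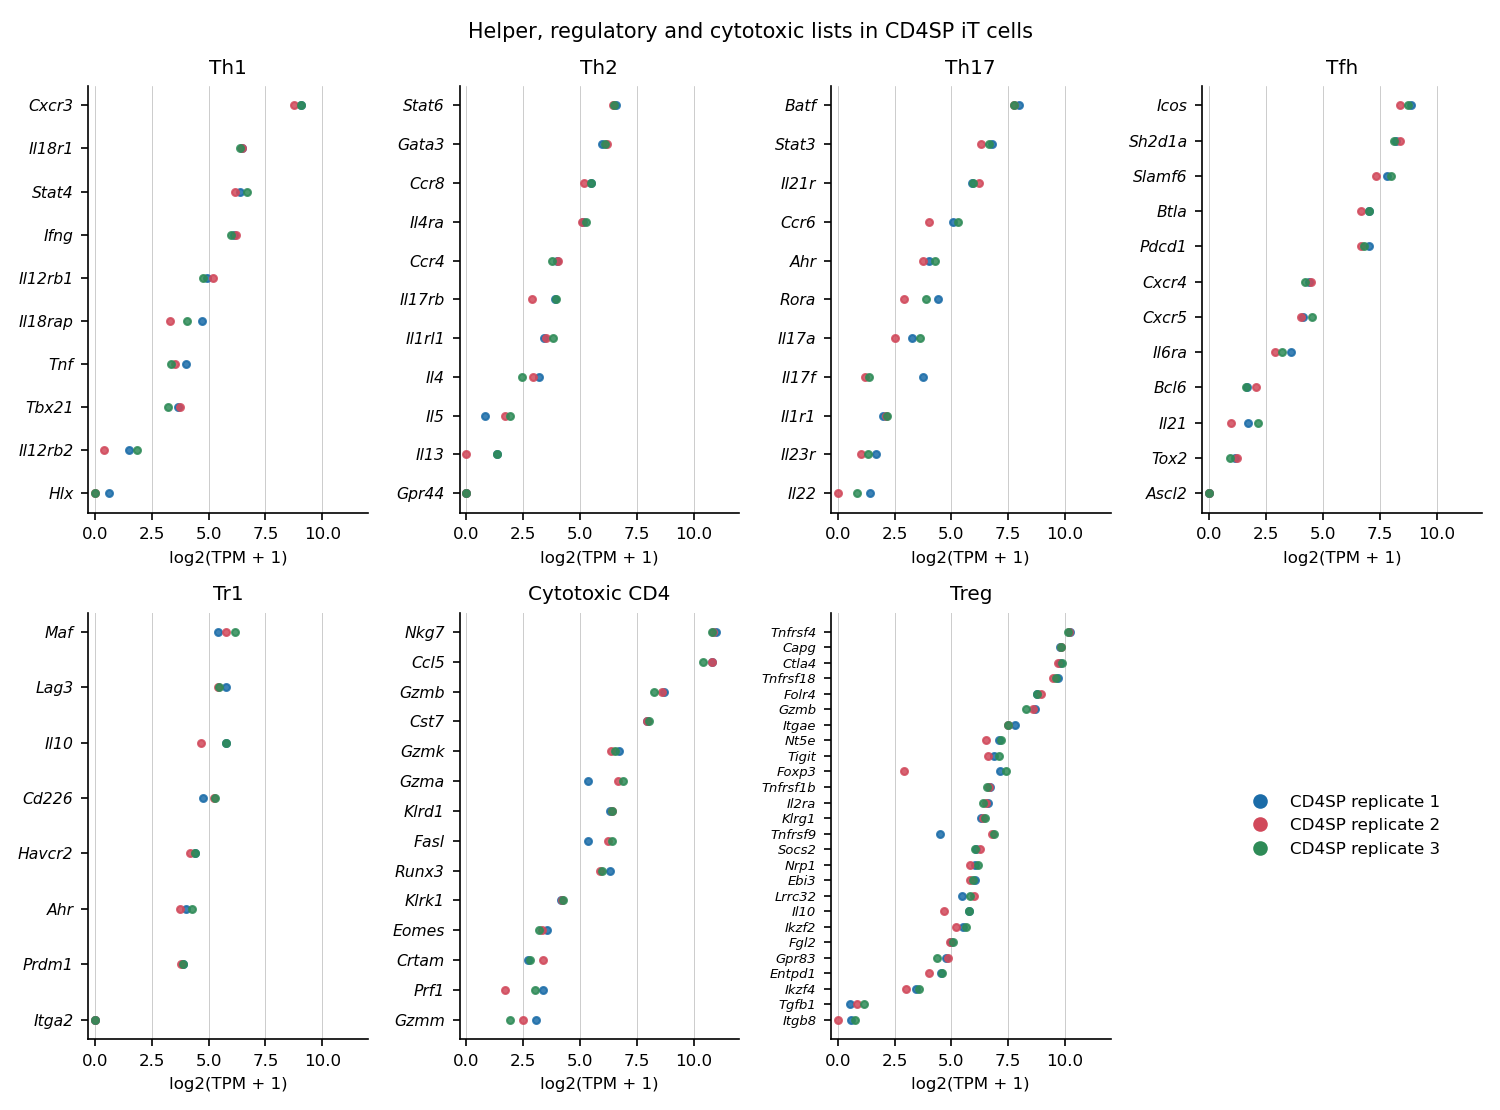
Levels on the log2(TPM + 1) scale of the genes of the 7 helper, regulatory and cytotoxic lists in the 3 CD4SP libraries, with 3 genes not shown. Points are libraries. In the Treg panel Foxp3 in replicate 2 stands apart from its other values, while most other genes have close values.

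Genes of the naive and of the antigen-experienced state were expressed side by side. Of 19 naive and quiescence genes 18 were members, with Btg1, an antiproliferative factor, at 368, 423 and 432 TPM and Il7r, the IL-7 receptor, at 392, 338 and 434 TPM. Lef1, a partner of TCF-1 in naive cells, averaged 3.52 TPM. All 23 effector and memory genes were members with a median of 480 TPM. Besides S100a4, S100a10 and Crip1 it was led by S100a6, at 1995, 2682 and 2151 TPM. Against CD8SP cells 2 naive genes were called higher and 2 lower of 19. For effector genes 6 were called higher and 1 lower of 23 (5 and 1 of 22 among those present in all CD8SP libraries). Over all genes tested 7.92% were called higher and 1.80% lower. The median log2 difference was 0.32 for the naive list and 0.45 for the effector list, against 0.28 over all genes tested.

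Transcripts that antigen signals can induce were present, and what induced them here was not tested. Of 22 genes 20 were members, with Nfkbia (mean 446 TPM), the phosphatase gene Dusp2 (418 TPM), Junb and Dusp1 (248 TPM) the highest. Cd69, the early activation antigen, was at 237, 228 and 270 TPM and Nr4a1, a direct reporter of receptor signalling, at 36.6, 40.4 and 30.1 TPM, whereas Egr3 was listed at 0 in all 3 libraries. Of 20 tested genes 10 were called higher than in CD8SP cells and none lower (median 0.94), with 8 of 18 among those present in all CD8SP libraries. Over all genes tested 7.92% were called higher and 1.80% lower.

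Restraint of activation was represented by Ctla4, by Dgka, a diacylglycerol kinase, at 626, 411 and 611 TPM, by Folr4 and by Cd5 at 411, 305 and 312 TPM. Of 19 such genes 18 were members. Of 18 tested genes 8 were called higher and 1 lower, or 7 and 1 of the 17 present in all CD8SP libraries, against 7.92% and 1.80% of all genes tested.

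Division genes were measured in every library. All 20 were members, led by Pcna, the replication clamp, at 566, 446 and 522 TPM, Tubb5 at 505, 395 and 504 TPM and Stmn1 at 346, 279 and 335 TPM. Mki67, the marker of cycling cells, was at 22.4, 14.1 and 27.2 TPM. None of the 20 was called against CD8SP cells by limma. All those named were lowest in replicate 2.

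Recombination genes of thymocytes were at or near 0. Rag1 was at 0, 1.17 and 0.336 TPM, Rag2 stayed under 1 TPM and Ptcra, the pre-T alpha chain, was at 0.605, 0 and 0 TPM. Of the 15 genes in that list 7 were members, the highest being Id3 at 86.5, 74.7 and 87.9 TPM and Dtx1, a Notch target, at 67.5, 48.0 and 60.2 TPM. Both genes of the inducible cassette were members. Runx1 was at 12.8, 12.3 and 10.9 TPM and Hoxa9 at 7.55, 9.98 and 8.39 TPM, while 6 of the other 7 Hoxa genes examined were listed at 0 in all 3 libraries. Runx1 was 1.45 higher than in CD8SP cells on the log2 scale (SE 0.20, limma adjusted p 0.00221), with no overlap between populations. Hoxa9 was under 1 TPM in all CD8SP libraries and entered the model only through its CD4SP values, so no test is given for it. Reads of the cassette and of the endogenous genes cannot be told apart in these values.

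The 3 libraries resembled each other but not equally. Across the 9753 members, which are not independent replicates, Pearson r of log2(TPM + 1) was 0.973 between replicates 1 and 3, 0.964 between 1 and 2 and 0.965 between 2 and 3. The median absolute difference was 0.22 for the first pair and 0.35 and 0.34 for the pairs with replicate 2. In CD8SP cells r was 0.979 to 0.990. The median SD of a member over the 3 CD4SP libraries was 0.26 on the log2 scale, falling from 0.34 for members under 10 TPM to 0.25 at 10 to 100 TPM and 0.19 above. The values of 1198 members (12.3%) spanned more than 2-fold and those of 113 (1.16%) more than 4-fold.

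Replicate 2 differed in a way that followed transcript length. Of the members, 9183 (94.2%) had a length in GENCODE. Genes with a longest transcript under 1 kb were 0.19 higher in replicate 2 than in the mean of the other 2 libraries (median, log2 scale), while those of 1 to 2 kb were 0.16 lower and those over 3 kb 0.27 lower. For replicates 1 and 3 the medians lay between -0.13 and 0.16. Tmsb4x, Cd52, the S100 genes and Crip1, whose values were highest in replicate 2, are genes of small proteins. The cause of this difference was not tested.

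Single genes could be far off in any library. Among 5173 members averaging 20 TPM or more, 9 (0.174%) had 1 library over 8-fold away from both others while those stayed within 2-fold of each other, against 11 of 4525 (0.243%) in CD8SP cells. In CD4SP cells these were Rcsd1 in replicate 1 (low), Ets1 and H2-Q8 in replicate 1 (high), Foxp3, Fam168b and U2af2 in replicate 2 (low), Tnfaip3 and Pik3cd in replicate 3 (low) and Rpa1 in replicate 3 (high). Tnfaip3, which encodes the NF-kappa-B brake A20, was at 245, 190 and 1.26 TPM. Pik3cd, the lymphocyte PI3 kinase delta, was at 136, 115 and 2.04 TPM. Ets1, a factor needed by T cells, was at 230, 3.23 and 2.94 TPM, and Grk6, a receptor kinase, at 291, 21.9 and 2.97 TPM. The low library was a different one for different genes.

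Another 9 genes were at 20 TPM or more in 2 CD4SP libraries and under 1 TPM in the other, which was replicate 1 for 1 gene, replicate 2 for 6 and replicate 3 for 2. The highest were Gm13826 at 201, 0.484 and 230 TPM, the class I gene H2-Q6 at 0, 90.6 and 121 TPM, Coro2a at 46.8, 0.0914 and 45.6 TPM, Nploc4 at 34.9, 0.481 and 44.1 TPM and Nkiras2 at 32.4, 0 and 40.7 TPM. Nploc4 was also at 35.7, 0.0618 and 23.2 TPM in the CD8SP libraries, so that this pattern was not particular to 1 population. Gm13826 and H2-Q6 have near-identical copies in the annotation, so the split of their reads is uncertain. At the other end, among non-ribosomal members averaging 100 TPM or more, Tomm22, an import receptor of mitochondria, was the steadiest at 365, 369 and 369 TPM, and Capg, of the regulatory list, was among the 10 with the lowest SD.

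**Figure D5:**
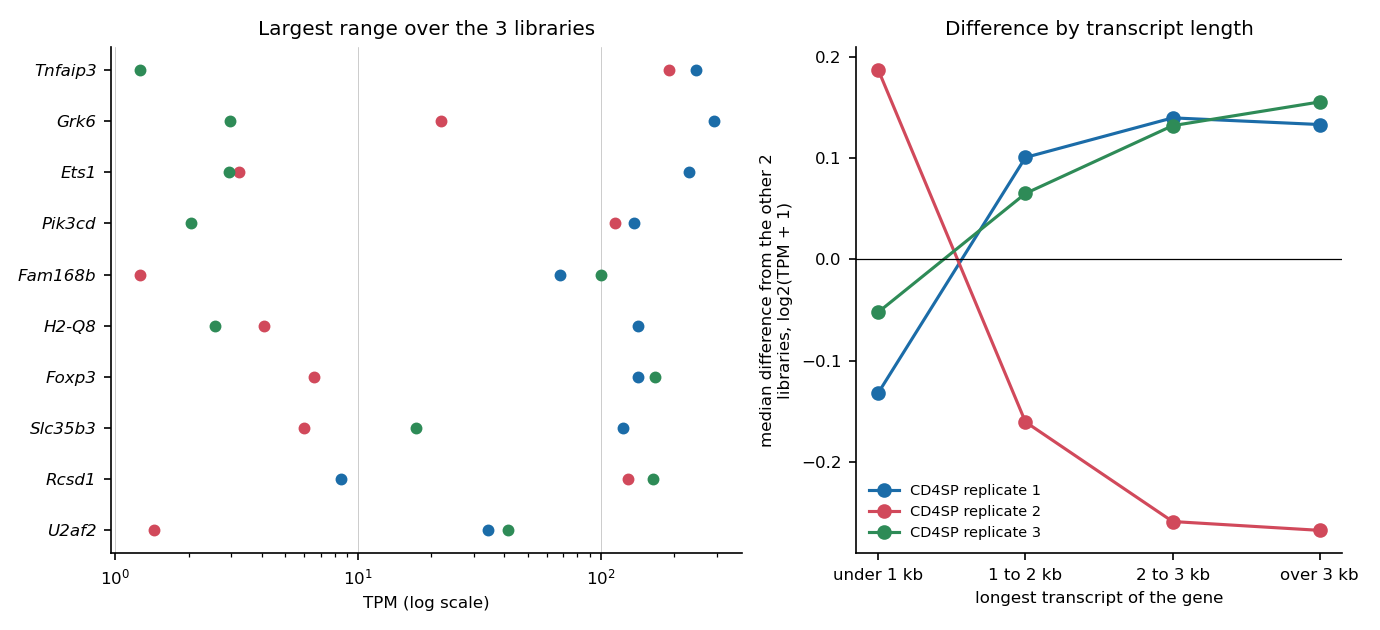
Left, TPM (log scale) of the 10 genes with the largest range over the 3 CD4SP libraries among those averaging 20 TPM or more. Right, median difference of each library from the mean of the other 2 (log2 scale) by length of the longest transcript. Replicate 2 runs from 0.19 for the shortest to -0.27 for the longest class.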

How the data were processed

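RNA was measured in 3 CD4SP and 3 CD8SP libraries of 1000 sorted cells. The authors amplified cDNA with the Discover-sc WTA Kit V2, made libraries with the TruePrep kit and sequenced them on a NextSeq 500. Per the submitters' processing notes, reads were aligned to mm10 with HISAT2, and StringTie gave the values, which the authors deposited as TPM with one column per library. Use of strand, removal of duplicates and the annotation are not given in the sources used here. TPM keeps no depth, so no counting interval could be computed, and an exact 0 may be a failed estimate. The columns summed to 997896 to 998100 and held no mitochondrial genes. T cell receptor constant genes were not analysed here, because those looked up were not found under the names used. Names turned into dates (27 rows) were kept and not named. Genes were tested with limma 3.58.1 in R 4.3.3 on log2(TPM + 1) with a mean-variance trend and Benjamini-Hochberg adjustment over the 10476 genes that reached 1 TPM in 3 or more libraries, a scale that understates changes of low genes. The scripts were tested on simulated data. Ribosomal shares were compared by an exact permutation test. Copies were transcripts with at least 95% identity over 200 nt (blastn 2.17.0+, GENCODE M21). The members and gene lists were chosen with earlier results of these data known, and 12 entries were taken out of the secreted, surface and factor lists after their values were seen because their products are not chiefly of that class. Named were the sort markers, the 20 highest non-ribosomal, 12 secreted, 15 surface and 15 factor genes, genes of the helper lists, up to 4 highest genes of each other list, the 10 genes of largest range and 5 near 0 in 1 library. Other genes were named after their values were seen. A few genes of these lists are not reported here by name, though list counts include them.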

Additional observations from a re-analysis of the deposited data

How the results depend on the processing

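The deposited values gave 830 genes higher and 189 lower in CD4SP cells. Median-of-ratios rescaling gave 489 and 300, quantile normalization 444 and 333, and the adjusted p alone 1845 and 338. Leaving out 1 library gave 683 to 1003 higher and 134 to 218 lower genes. The members numbered 9753, and 9903 to 10178 without 1 of the libraries. The mean Pearson r between CD4SP libraries was 0.967, and 0.973 without replicate 2, with 0.964 as the lowest value of the 3 fits. The ribosomal share of 27.3% lay between 25.7% and 28.2% without 1 library. Leaving mitochondrial genes out of the total could not be run, because the table held none. For Tbx21, which was not called, the log2 difference of 0.02 changed sign to -0.34 when libraries were quantile normalized, -0.26 under median-of-ratios scaling and -0.15 when ribosomal protein genes were dropped. The median over all tested genes was 0.28 as deposited, -0.02, 0.00 and 0.13 in these. The Tbx21 difference was -0.091 to 0.184 without 1 library. Of 390 values of single genes, 377 kept their direction and their side of the threshold.

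The fit with the replicate number as a block gave 808 higher and 189 lower genes, of which 779 and 180 were also called without it. Deviations of same-numbered libraries correlated at 0.041 on average (-0.017 to 0.089), and 1 of the 3 CD4SP libraries correlated best with its own number, so the pairing rests on the number alone. With the block Foxp3 was called at an unchanged difference of 2.61. The list counts were recomputed in all these settings after the data were seen. TPM keeps no depth, so no gene listed at 0 can be called absent.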

Other observations

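Interferon-related genes outside the lists above were expressed. The Ifi and Ifit family had 11 members of 15 genes and held 0.256%, 0.318% and 0.274% of TPM in replicates 1, 2 and 3, against 0.146% ± 0.00293 in CD8SP libraries (SD, n = 3). Ifi27l2a, an interferon-induced mitochondrial protein, was its highest gene at 1245, 1961 and 1350 TPM. Guanylate-binding proteins, which act against intracellular pathogens, had 9 members of 11 and held 0.0823%, 0.0624% and 0.0770%, led by Gbp8 (mean 243 TPM), against 0.0412% ± 0.00142 in CD8SP libraries (SD, n = 3). In both families every CD4SP share was above the CD8SP mean. The families were chosen after their values were seen and were not tested.

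Housekeeping families were nearly complete. All 76 mitochondrial ribosomal protein genes were members and held 0.730% ± 0.0208 of TPM (SD, n = 3). The nuclear-encoded respiratory chain and ATP synthase had 84 members of 92 and held 3.29% ± 0.280, led by Cox4i1 at 1594, 1640 and 1419 TPM. The proteasome had 47 of 49 and held 1.46% ± 0.0669. All 8 Gimap genes, GTPases of lymphocyte survival, were members and held 0.350% ± 0.0286, with Gimap6 at 1171, 989 and 1276 TPM. The CD8SP means of these 4 families were 0.712%, 3.26%, 1.34% and 0.363%.

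Nonclassical class I genes moved between libraries in opposite directions. H2-Q7 was at 389, 347 and 1015 TPM, H2-Q9 at 1074, 941 and 387 TPM and H2-T23 at 682, 474 and 155 TPM. Replicate 3 was the library that stood apart for each of these. Replicate 1 stood apart for H2-Q8, at 142, 4.08 and 2.57 TPM, and for H2-Q6, given above. H2-Q7 and H2-T23 have near-identical copies in the annotation, and the part of read assignment between copies was not tested. Tmem254c was at 0, 175 and 0 TPM and Lax1, an adaptor that restrains receptor signalling, at 113, 0.656 and 0.416 TPM.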
